A study of Mus musculus with 4 samples.

Results

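The proteins that couple integrins to the actin cytoskeleton were examined through 10 genes: Lims1, Lims2, Ilk, Parva, Parvb, Tln1, Fermt2, Vcl, Zyx and Pxn, of 12393 genes with a single symbol on the array. They are represented by 19 probe sets, all of which are described. The genes were chosen by name with the differences between Med1-/- and Med1+/+ cells already known, the large difference of Lims2 among them, so every difference given for them is a description and carries no test. Expression was measured in mouse embryonic fibroblasts of strain C57BL/6J, taken at E10.0 and grown in medium with fetal calf serum. One group was Med1+/+ p53-/- and the other Med1-/- p53-/-, with 2 arrays each, so that both genotypes lacked p53. The embryos came from 1 cross, of a Med1+/- p53-/- male with a Med1+/- p53+/- female, and the labels do not say how many embryos or cultures stand behind the arrays of a genotype. Any p-value therefore measures the spread between these arrays, which may be technical, and any other difference between embryos or cultures of the genotypes cannot be told apart from Med1 loss. Med1 itself, a subunit of the Mediator complex, had a deposited signal of 664.6 and 885.6 for Med1+/+ against 25.4 and 40.2 for Med1-/-, and all 6 of its probe sets were lower.

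Integrins are transmembrane receptors that bind the extracellular matrix outside the cell and, through adaptor proteins, actin filaments inside it. Talin (Tln1) and kindlin-2 (Fermt2) bind the cytoplasmic tail of integrin beta subunits and switch integrins to their active state. Integrin-linked kinase (Ilk, a pseudokinase), a PINCH protein (Lims1 or Lims2) and a parvin (Parva or Parvb) form the IPP complex, which ties the integrin tail to actin and in which each partner stabilises the others. Vinculin (Vcl) reinforces the link of talin to actin, zyxin (Zyx) is a LIM protein of mature adhesions, and paxillin (Pxn) is a scaffold for adhesion kinases. In fibroblasts these proteins assemble into focal adhesions.

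The clearest feature of the IPP genes was an opposite difference of the PINCH paralogs. Lims2 (PINCH2) had a deposited signal of 38.6 and 37.0 for Med1+/+ against 213.6 and 339.2 for Med1-/-, whereas Lims1 (PINCH1) had 1348.4 and 1622.0 for Med1+/+ against 371.4 and 479.1 for Med1-/-. The arrays of the genotypes did not overlap for either gene. The deposited arrays did not share a scale, with array medians of 76.25 and 106.65 for Med1+/+ against 36.1 and 51.4 for Med1-/- cells, and values were therefore quantile normalized and taken as log2(intensity + 1.7). On that scale Lims2 went from 4.94 ± 0.355 to 8.59 ± 0.089 (SD, n = 2), a log2 difference of 3.66 (SE 0.21) or 12.6-fold. Its level in Med1+/+ cells lay below the expression filter, the 40th percentile of all probe sets at a log2 value of 4.98, so it entered the comparison only through the Med1-/- arrays and the size of its fold is inexact. With pseudocounts of 1 and 50 in place of 1.7 the log2 difference was 3.69 and 2.46. Lims1 went from 10.2 ± 0.18 to 9.22 ± 0.11 (SD, n = 2), a log2 difference of -1.02 (SE 0.13) or 2.03-fold.

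The difference between the changes of Lims2 and Lims1 was 4.67 log2 units with quantile normalized arrays. Each of the 5 other scalings tried gave from 4.55 to 4.60. Those 5 differ only by a factor per array, which cancels in this difference apart from the pseudocount, so their agreement was fixed in advance. With quantile normalization a pseudocount of 50 gave 3.42. The difference was 4.17 when the probe sets whose suffix marks several transcripts (_s_at, _x_at or _a_at) were left out. That choice left Lims1 with its dimmest probe set, which differed by -0.51.

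All 3 probe sets of Lims1 were lower on both Med1-/- arrays than on both Med1+/+ arrays. The probe set 1418232_s_at had a deposited signal of 749.8 and 1047.5 for Med1+/+ against 180.1 and 242.3 for Med1-/- cells, a log2 difference of -1.22, and the dim 1418231_at had 78.8 and 133.0 against 25.9 and 45.0. Lims2 had 1 probe set, 1424408_at, and so no second reading.

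Ilk, which encodes the central protein of the complex, was higher in Med1-/- cells. Its only probe set gave a deposited signal of 629.0 and 800.1 for Med1+/+ against 1266.2 and 1707.3 for Med1-/-. It was thus higher even before the dimmer Med1-/- arrays were scaled, with a log2 difference of 1.76 (SE 0.11, n = 2 per genotype) or 3.38-fold after normalization. Relative to Ilk, measured on the same arrays, Lims1 differed by -2.77 log2 units.

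Parva, which encodes alpha-parvin, was higher by an amount that its probe sets gave differently. The brighter one, 1431375_s_at, gave deposited values of 455.9 and 811.6 for Med1+/+ against 425.9 and 689.4 for Med1-/- cells, values that overlapped before scaling and differed by 0.65 log2 units (SE 0.15) after it. The other, 1416818_at, gave 228.5 and 269.2 for Med1+/+ against 600.5 and 801.7 for Med1-/- cells, with no overlap and a log2 difference of 2.33. The _s_at probe set can also match transcripts of other genes. Parvb, which encodes beta-parvin, was below the filter on all 4 arrays, with deposited signals of 6.2 and 9.1 for Med1+/+ against 2.0 and 6.4 for Med1-/- cells, so no fold is given for it.

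**Figure D1:**
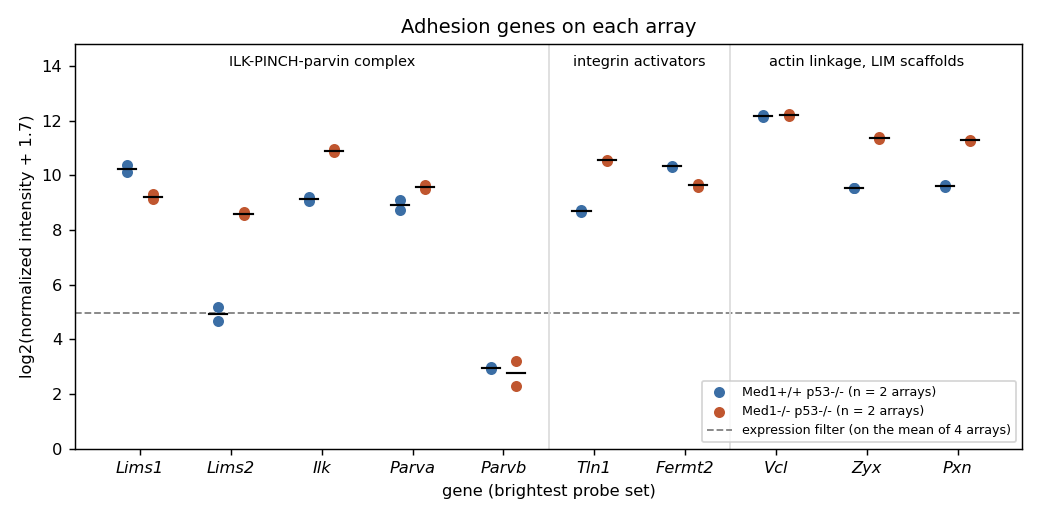
Normalized log2 intensity of the brightest probe set of each gene (y axis) by gene (x axis), with a point for each array, a black bar for the mean of the 2 arrays of a genotype and a dashed line at the expression filter of 4.98. Levels compare within a gene and not between genes; Lims2 goes from the filter line in Med1+/+ cells to 8.59 in Med1-/- cells, Lims1 and Fermt2 are lower, and the points of Vcl overlap.

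The integrin activators differed in opposite directions. Tln1 had a deposited signal of 436.5 and 630.5 for Med1+/+ against 912.2 and 1366.8 for Med1-/-. After normalization it was 3.59-fold higher in Med1-/- cells (log2 difference 1.85, SE 0.10, n = 2 per genotype), and its second probe set, 1436042_at, differed by 1.29. As deposited that second probe set overlapped, at 120.9 and 142.3 for Med1+/+ against 134.8 and 203.4 for Med1-/-. Fermt2 had 1284.1 and 1905.3 for Med1+/+ against 489.0 and 664.7 for Med1-/-. It was 1.61-fold lower after normalization (log2 difference -0.69, SE 0.10), and its second probe set, 1434181_at, differed by -0.34. Neither gene's brightest probe set overlapped between genotypes.

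Of the actin-linking and LIM scaffold genes, Zyx and Pxn were higher and Vcl was nearly level after quantile normalization. Zyx had a deposited signal of 771.1 and 1111.0 for Med1+/+ against 1777.1 and 2429.9 for Med1-/- cells, with a log2 difference of 1.83 (SE 0.098) after normalization. Pxn had 792.2 and 1197.7 for Med1+/+ against 1566.7 and 2419.8 for Med1-/- cells, with a log2 difference of 1.67 (SE 0.098). On these brightest probe sets both were above every Med1+/+ array as deposited and after normalization. The dimmer probe sets ran the same way after normalization, at 1.24 for Zyx (1438552_x_at) and at 1.84 and 0.99 for Pxn, the last of these (1426085_a_at) below the filter. As deposited, 1438552_x_at and 1426085_a_at overlapped between genotypes. The Zyx probe set 1438552_x_at was noisy, its 2 normalized Med1+/+ values being 82.7 and 28.5.

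Vcl had deposited signals of 4705.6 and 6103.3 for Med1+/+ against 3346.8 and 4507.0 for Med1-/- cells. After normalization its values were 4766 and 4515 for Med1+/+ against 4853 and 4570 for Med1-/- cells, which overlapped, with a log2 difference of 0.02 (SE 0.091). Its other probe set, the dim 1416157_at, differed by 0.85, and the mean of both probe sets differed by 0.44, which was called higher. As deposited that dim probe set overlapped between genotypes.

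**Figure D2:**
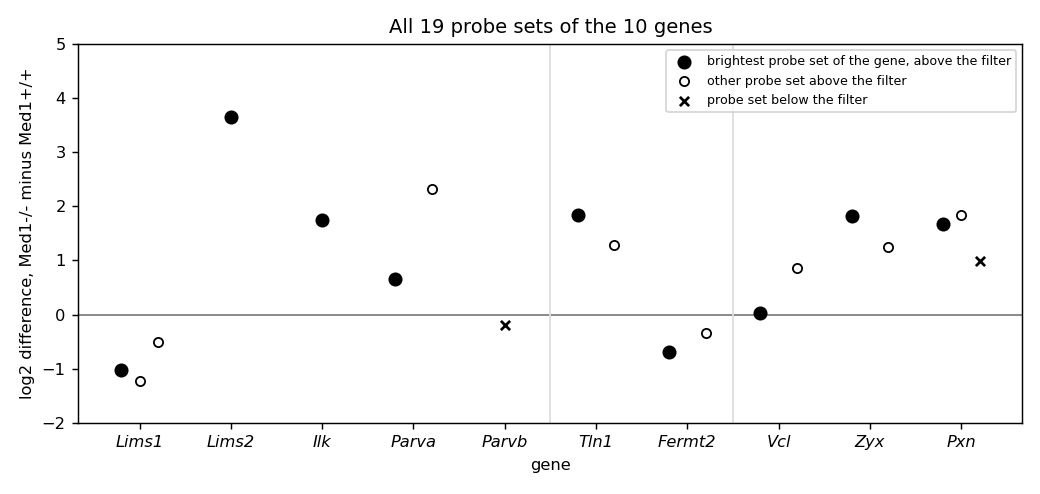
Difference of mean normalized log2 intensity between Med1-/- and Med1+/+ arrays (y axis) for the 19 probe sets of the 10 genes (x axis), filled for the brightest probe set of a gene, open for others above the filter and crossed for the 2 below it. The probe sets of each of the 7 genes with several ran in the same direction, and those of Parva (0.65 and 2.33) lay far apart in size.

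Over the 10 genes, 9 passed the expression filter, of which 6 were called higher in Med1-/- cells (Lims2, Ilk, Parva, Tln1, Zyx and Pxn), 2 were called lower (Lims1 and Fermt2) and Vcl was not called. A call means an adjusted p under 0.05 in limma with Benjamini-Hochberg adjustment over 8923 features. Of all features 39.1% were called higher and 36.2% lower, and the genes had been chosen with this comparison known, so nothing is read from their count. Both Med1-/- arrays lay above both Med1+/+ arrays for the 6 genes called higher and below them for the 2 called lower. The same held for 46.1% and 42.1% of all features. The median log2 difference was 1.67 over the 9 genes and 0.09 over all features. Of the 19 probe sets, 12 were higher without overlap, 5 lower without overlap and 2 overlapped after normalization. As deposited, the counts were 7, 6 and 6. The shares of all features above are for normalized values, and none are given for the deposited scale. On that scale the median log2 difference of all features was -0.76, and 6.45% of the called features were higher. Nothing is therefore read from the deposited counts.

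How the arrays are scaled decided the sign of the brightest probe sets of Parva and Vcl, and the number of genes called. The other Parva probe set, 1416818_at, was higher without overlap as deposited, and was not fitted under the control scalings. In the values as deposited the median difference of all features was -0.76, and 4 of the genes were called higher and 2 lower. With array medians or 75th percentiles set equal 7 were called higher and 2 lower, Vcl being called higher at 0.60 and 0.41. Scaling on the hybridisation controls gave a median of -0.78 with 5 called higher and 3 lower, and scaling on the spiked Bacillus subtilis transcripts gave -1.71 with 1 called higher, Lims2 at 1.83, and 4 lower. The share of higher among all called features was 51.9% after quantile normalization, 59.9% with array medians and 52.9% with 75th percentiles set equal, 6.45% as deposited, 17.8% with the hybridisation controls and 0.973% with the Bacillus subtilis ones. Lims2 stayed above 0 and Lims1 and Fermt2 below 0 under all 6 scalings, and Ilk, Tln1, Zyx and Pxn stayed above 0, at 0.08, 0.12, 0.20 and 0.03 on the Bacillus subtilis controls. Parva was at -0.17 as deposited, at -0.19 with hybridisation and at -1.13 with Bacillus subtilis controls. Vcl was at -0.46, -0.49 and -1.43 under the same 3 scalings, and was called lower under the last 2. Relative to the median of all features, Lims2 was at 3.51 to 3.57, Ilk at 1.67 to 1.82, Zyx at 1.74 to 1.93, Tln1 at 1.76 to 1.85, Pxn at 1.58 to 1.76, Parva at 0.56 to 0.60, Fermt2 at -0.78 to -0.69 and Lims1 at -1.11 to -1.04. Only Vcl changed sign relative to that median, at -0.07 with quantile normalized arrays, against 0.28 to 0.30 with each of the 5 others. Those 5 differ only by a factor per array, which shifts every gene and the median alike. They must nearly agree and count as a single reading.

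**Figure D3:**
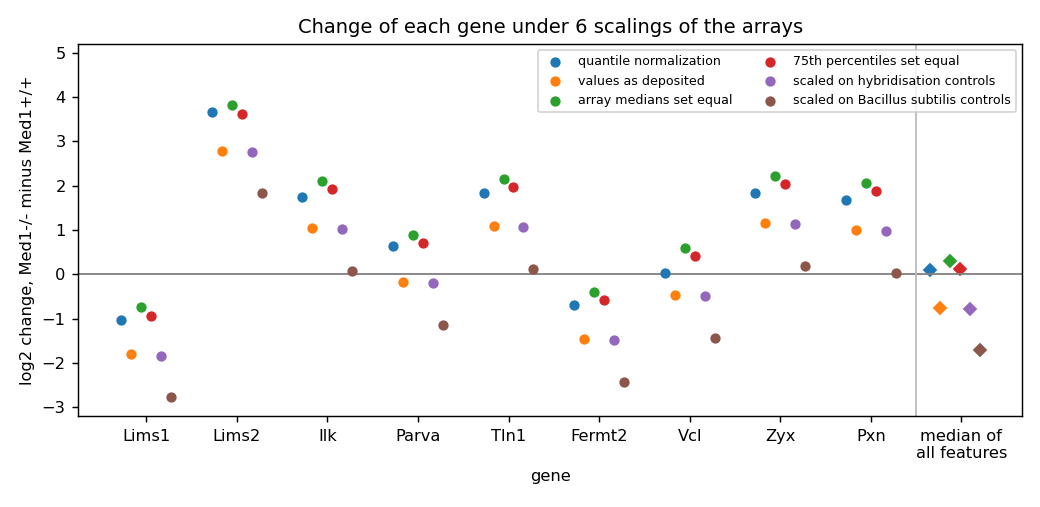
Log2 difference between Med1-/- and Med1+/+ arrays (y axis) for the 9 genes above the filter (x axis) under 6 scalings, in colour, with the median of all features as diamonds at the right. The points of a gene shift together with the diamonds: Lims2 lies above 0 and Lims1 and Fermt2 below 0 under all 6, while the brightest probe sets of Parva and Vcl cross 0.

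Upstream sequences are shown for a pair of genes that hold a CArG box and for a pair of scaffold and activator genes that were higher together, since the CArG box is the site bound by serum response factor, a known regulator of cytoskeletal genes. RefSeq windows of build GRCm38.p6 were used for 7 of the 10 genes, as 10 windows of 300 bases, 250 before and 50 after a start site. Each sequence below is the 250 bases before the start, 5′ to 3′ on the gene's strand, with a CArG box in capitals: Vcl at chr14:20929148-20929397 on the plus strand, Fermt2 at chr14:45530066-45530315 on the minus strand, Zyx at chr6:42349578-42349827 on the plus strand and Tln1 at chr4:43562584-43562833 on the minus strand.
Vcl: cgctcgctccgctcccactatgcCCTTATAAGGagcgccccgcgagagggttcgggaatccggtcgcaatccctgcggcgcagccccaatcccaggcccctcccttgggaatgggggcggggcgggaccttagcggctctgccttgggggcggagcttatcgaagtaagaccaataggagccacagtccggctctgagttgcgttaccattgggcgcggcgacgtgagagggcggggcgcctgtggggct
Fermt2: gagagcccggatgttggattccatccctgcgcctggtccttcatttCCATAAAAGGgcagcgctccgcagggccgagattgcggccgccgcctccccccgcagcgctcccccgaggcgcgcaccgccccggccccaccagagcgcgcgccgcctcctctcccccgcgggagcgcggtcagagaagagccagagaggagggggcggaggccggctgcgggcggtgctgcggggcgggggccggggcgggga
Zyx: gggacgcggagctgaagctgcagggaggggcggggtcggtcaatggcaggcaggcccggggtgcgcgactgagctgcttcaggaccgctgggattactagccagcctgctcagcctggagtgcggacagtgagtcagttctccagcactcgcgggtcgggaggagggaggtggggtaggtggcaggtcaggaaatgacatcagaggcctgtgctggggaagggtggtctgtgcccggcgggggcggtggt
Tln1: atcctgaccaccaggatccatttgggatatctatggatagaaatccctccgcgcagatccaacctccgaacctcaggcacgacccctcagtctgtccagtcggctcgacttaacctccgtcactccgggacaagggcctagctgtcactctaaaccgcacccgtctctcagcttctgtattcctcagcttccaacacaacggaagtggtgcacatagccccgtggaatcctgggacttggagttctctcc

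The windows were searched on both strands for the CArG box, the MCAT element CATTCC, the nuclear receptor core motif AGGTCA and the GC box GGGCGG. A CArG box lay at -227 to -218 from the start of Vcl and at -204 to -195 from that of Fermt2, and in none of the 8 other windows. A CArG box was in 1.63% of all 32851 windows of that length. Of the genes with the box, Vcl was level and Fermt2 lower after quantile normalization. The windows of Lims1 (lower), Parvb (below the filter) and Zyx, Tln1 and Ilk (higher) held none. No window of Lims2, Parva or Pxn was searched. With the box so rare among all windows, its absence says little, and a link of the box to direction was not tested. CATTCC was in the window of Vcl (14.7% of all windows) and AGGTCA in that of Zyx (16.3%). GGGCGG was in windows of Lims1, Ilk, Parvb, Vcl, Zyx and Fermt2, with 6 matches in Fermt2, and in 35.7% of all windows. No match overlapped one of another motif. A match is a string of letters and not evidence of binding.

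The receptors and partners of these proteins were examined in lists that share no gene with the 10. Of 97 listed genes 79 were on the array and 63 passed the filter, of which 39 rose (61.9%, against 39.1% of all features) and 14 fell (22.2%, against 36.2%) in Med1-/- cells, with a median log2 change of 0.75. The lists were written with earlier results of these data known. The 20 genes named from them were the called ones of largest change, up to 4 per list. Their adjusted p-values ran from 3.15e-05 to 0.00253 (limma with Benjamini-Hochberg adjustment). For all 20 the 2 arrays of one genotype lay beyond both of the other after normalization, as for 88.2% of all features. Both follow largely from that choice. When arrays were scaled on the Bacillus subtilis controls, 11 of the 20 had the opposite sign: Sorbs3, Evl, Git1, Ptk2b, Akt1, Itga3, Arhgef7, Kank2, Sharpin, Tgfb1i1 and Fhl1, and Tns1, Csrp1 and Pdlim7 were not called. Of the 16 that rose, 12 were not called in the values as deposited, namely the 11 of opposite sign and Pdlim7, and Itga3, Arhgef7, Kank2 and Sharpin were not called on the hybridisation controls. The directions below are those after quantile normalization.

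Integrin subunit genes changed in both directions. Of 7 tested among 19 listed, 4 rose (57.1%, against 39.1% of all features) and 3 fell (42.9%, against 36.2%). Itga5, the alpha chain of the fibronectin receptor, rose by 2.48 log2 units (SE 0.22) from deposited signals of 58.8 and 57.4 to 158.5 and 185.4. Itga3, a laminin receptor chain, rose by 1.12. Itga6, another laminin receptor chain, fell by 2.45 (SE 0.12), from 610.8 and 871.9 to 54.1 and 84.5. Itgb1, the beta chain that pairs with all of these, fell by 1.17, from 1284.2 and 1891.4 to 312.9 and 511.6. Dim probe sets below the filter differed the other way for Itga5 (-0.45) and Itga3 (-1.58).

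Direct relatives and partners of the IPP complex changed in both directions. Of 9 tested, 4 rose (44.4%, against 39.1% of all features) and 2 fell (22.2%, against 36.2%), with a median of 0.02. The share that rose was near that of all features. The SH2 and SH3 adaptor gene Nck1 fell by 1.47, and Arhgef7 (beta-PIX, a Rac exchange factor, 1.41), Kank2, whose product binds talin (1.28), and Sharpin, an inhibitor of integrin activation (1.05), rose. A dim probe set of Arhgef7 below the filter differed by -0.42. Rsu1 (-0.02) and Nck2 (0.02), which encode PINCH-binding proteins and were picked here after their values were seen, did not pass the test (SE 0.12 and 0.19).

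The relatives of zyxin and paxillin mostly rose. Of 20 LIM protein genes tested, 13 rose (65%, against 39.1% of all features), 4 fell (20%, against 36.2%) and 3 did not pass, with a median of 1.11. The largest changes were rises of Csrp1 (1.81, SE 0.094), a cysteine-rich LIM protein of smooth muscle, Pdlim7 (1.80), an actin-associated PDZ and LIM protein, Tgfb1i1 (1.66), which encodes the paxillin relative Hic-5, and Fhl1 (1.52), a LIM-only muscle protein. Csrp1 went from deposited signals of 1189.6 and 1576.4 to 2593.8 and 3874.1.

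Actin linkers also mostly rose, with a median of 0.96. Of 12 tested, 10 rose (83.3%, against 39.1% of all features) and 2 fell (16.7%, against 36.2%). Flnc, the muscle filamin, rose by 2.51 (SE 0.11), from 231.6 and 344 to 753 and 1133, and Tns1, tensin 1 of fibrillar adhesions, rose by 2.23. The second probe set of Tns1 differed by 1.32, and without Med1-/- replicate 1 its change was 1.38. Sorbs3, which encodes the vinculin-binding protein vinexin, rose by 1.52 and Evl, an actin-polymerising Ena/VASP protein, by 1.52.

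Adhesion signalling genes had 8 rising (53.3%, against 39.1% of all features) and 3 falling (20%, against 36.2%) of 15 tested, with a median of 0.55. Git1, a paxillin-binding scaffold (1.82), Ptk2b, the focal adhesion kinase relative Pyk2 (1.64), and the kinase gene Akt1 (1.497) rose. The adaptor gene Crk fell by 1.63 on its brightest probe set. Of its other probe sets above the filter, those at -1.72 and -0.50 ran the same way and 1 ran the other way at 1.49, and their mean, -0.59, was still called lower. Relative to the median of all features, list medians over the 6 scalings ran from 1.02 to 1.13 for LIM proteins, 0.87 to 1.05 for actin linkers, 0.44 to 0.64 for integrins, 0.40 to 0.46 for signalling and -0.07 to -0.04 for the IPP partners. All scalings but quantile normalization differ only by a factor per array and must nearly agree here. As absolute values on the Bacillus subtilis controls all 5 medians were below 0, from -1.77 to -0.60.

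**Figure D4:**
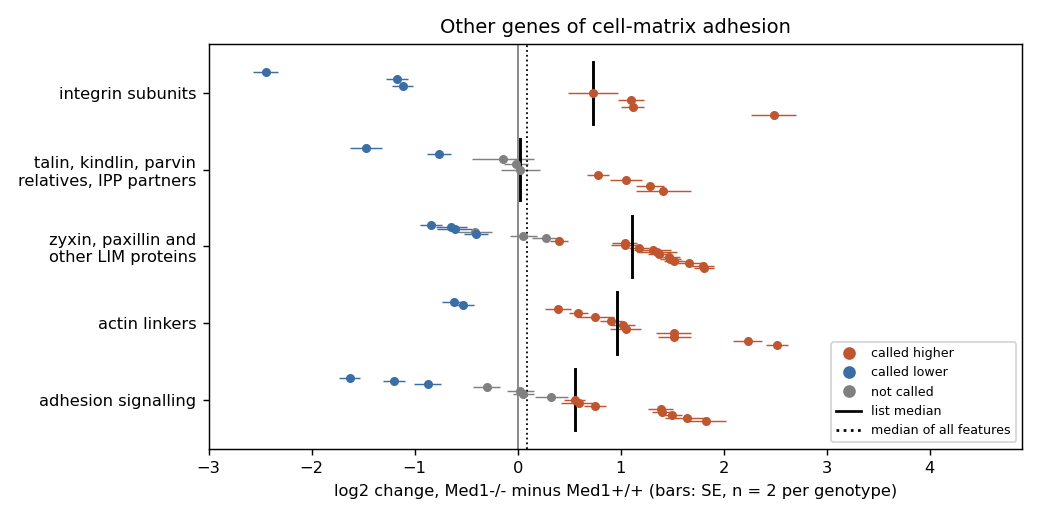
Log2 change between Med1-/- and Med1+/+ arrays (x axis, bars are SE, n = 2 per genotype) of each tested gene of 5 adhesion lists (y axis), coloured by call, with the list median as a black bar and the median of all features (0.09) dotted. LIM proteins and actin linkers lie mostly to the right, and integrins split into 4 rises and 3 falls.

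Markers of cell types were compared in the same fit, in which 39.1% of all features were called higher and 36.2% lower. Fibroblast and mesenchyme markers were present, 12 of 13 passing the filter, with 4 higher (33.3%) and 4 lower (33.3%), near those shares. Their summed normalized signal was 53860 and 50130 for Med1+/+ against 54960 and 51750 for Med1-/- cells. That sum hides large changes of single genes. Postn (-3.84), Pdgfra (-2.95), S100a4 (-2.68) and Dcn (-1.99) fell. Col1a1 (1.98), Thy1 (1.34), Col3a1 (1.11) and Col1a2 (0.28) rose. The bright genes Vim (0.06) and Fn1 (0.16) were not called. Of 10 smooth muscle markers 9 were tested, with 7 higher (77.8%) and 2 lower (22.2%). The summed signal of these went from 22270 and 21680 to 36550 and 34260. Among the higher ones Lmod1 had a Med1+/+ mean of 4.30, under the filter of 4.98. It passed only through the Med1-/- arrays, with a mean of 5.77. Of 10 skeletal and cardiac muscle markers 4 were tested and all 4 were higher, with sums of 213.9 and 219.4 against 1985 and 2073. Myod1, Myog and Ckm were below the filter. Actc1 likewise passed only through the Med1-/- arrays, at 4.01 for Med1+/+ against 6.02. The counts of both muscle lists thus follow in part from the filter. Of 8 epithelial markers 6 were tested, with 1 higher (16.7%) and 5 lower (83.3%). Cdh1, Krt8, Krt18, Dsp and Dsg2 fell, with log2 changes from -4.501 (Cdh1) to -1.96 (Krt8), and Krt19 rose by 1.61. Their summed signal was 5029 and 5177 against 2308 and 2701, Krt19 being the brightest of them in Med1-/- cells, and their median change was -4.16. Dsg2 passed the filter only through the Med1+/+ arrays, at 8.45 against 4.06 for Med1-/-. Endothelial and blood cell markers were near background, with 1 of 8 and 2 of 8 above the filter and 0 called in each list (limma), Pecam1, Cdh5 and Ptprc being below it. The part of these markers in the differences above was not tested, and fewer cells of a type and less RNA per cell cannot be told apart in these bulk cultures.

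The genes whose pattern over the 4 arrays was nearest to that of Lims2, by Euclidean distance of centred log2 values, were the muscle intermediate filament gene Des (0.33), the forkhead factor gene Foxd1 (0.40) and Popdc2, a membrane protein gene of striated muscle (0.45). Nearest to Lims1 were the transcription repressor gene Bach1 (0.033), the syntaxin gene Stx3 (0.036) and the mitochondrial ribosomal protein gene Mrpl47 (0.046). Over 4 arrays such a distance mostly reflects the size of the genotype difference, which was 3.78 for Des and -1.05 for Bach1.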

How the data were processed

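Gene expression was measured on 4 Affymetrix arrays with 22626 probe sets besides 64 controls. The deposited table gives the authors' signal intensity, on a linear scale, of every probe set. Biotin-labelled RNA was made by in vitro transcription, per the labels' protocols. Probe summarisation, background correction and scaling were not given in the sources used here. Symbols came from the platform annotation and RefSeq (GRCm38.p6): 20380 probe sets had 1 symbol, 691 several and 1555 none.

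Arrays were quantile normalized and taken as log2(intensity + 1.7), 1.7 being the 10th percentile of the table, which understates the changes of dim genes. A filter at the 40th percentile of the mean removed 9050 probe sets, and the brightest probe set stood for a gene. Genotypes were compared by limma 3.58.1 in R 4.3.3 (eBayes with an intensity trend, two-sided, 2 residual degrees of freedom), adjusted by Benjamini-Hochberg over 8923 features at 0.05. The filter, fit and calls were tested on simulated data with few changed genes. That test left out the normalization and so does not bear on the scaling. The number of arrays limits the precision.

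The 10 genes and all lists were chosen with earlier results of these data known. Named besides them are Med1, up to 4 called genes of each pathway list with the largest change, the 3 nearest genes in pattern to Lims1 and Lims2, and others where a sentence says so or a marker list needs them. Alternatives varied the filter, scaling, pseudocount, probe set, variance model, threshold, a replicate block and the arrays left out. Figures were drawn with matplotlib 3.10.9.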

Additional observations from a re-analysis of the deposited data

How the results depend on the processing

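Counts moved mainly with the scaling. Against 3490 features higher and 3232 lower, the values as deposited gave 265 higher, the hybridisation controls 1168 and 5390, and the Bacillus subtilis controls 78 and 7936. Against 39 other adhesion genes higher and 14 lower, the same scalings gave 5 higher, 22 and 26, and 2 and 43. Of the 10 genes, 1 was called higher and 4 lower on the Bacillus subtilis controls. With only probe sets without _s, _x or _a, 1 of the 10 was called lower, as Lims1 lost its call, and 9 other adhesion genes were lower.

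Among the 10 genes, values of the opposite sign came from the brightest probe sets of Parva and Vcl. Those of Parva were -0.17 as deposited, -0.19 on the hybridisation and -1.13 on the Bacillus subtilis controls. Those of Vcl were -0.46 as deposited, not called, and -0.49 and -1.43 on those controls. Without Med1+/+ replicate 2 and without Med1-/- replicate 1 Vcl was at -0.019 and -0.020, not called. On the Bacillus subtilis controls Sorbs3 (-0.35), Evl (-0.25), Git1 (-0.12), Ptk2b (-0.31), Akt1 (-0.20), Itga3 (-0.71), Arhgef7 (-0.48), Kank2 (-0.64), Sharpin (-0.73), Tgfb1i1 (-0.17) and Fhl1 (-0.056) reversed as well. Which scaling is right was not tested. In all, 173 of 187 values of the 10 genes and 380 of 410 of the named pathway genes kept their call or lack of one, 3 of the former being the uncalled Vcl values of opposite sign, and the 60th percentile filter left out Lims2. A comparison of Parvb with Parva, Parvb being below the filter, and of the paralogs' protein sequences was not run.

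With the replicate block, 3825 features were higher and 3500 lower, with 6 and 2 of the 10 genes. Same-numbered arrays had deviations that correlated at 0.30, but with 2 numbers the labels do not show that they pair the samples. Leaving out each array in turn gave 3077 to 3341 features higher and 2710 to 3171 lower, and 6 and 2 of the 10 genes each time, the lone array being assumed to vary like the other genotype's.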
